A study of Rattus norvegicus with 2 samples.

Results

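Described here are 7 genes of oxygen sensing and glucose use, Vegfa, Car9, Bnip3l, Slc2a1, Slc16a3, Hk1 and Pfkm, in rat bone marrow mesenchymal stem cells. The genes were chosen by symbol, and each matched 1 of the 2325 rows of the deposited table. Cells of Sprague-Dawley rats at passages 3 to 5 were compared in 2 libraries. One library came from untransfected cells. The other came from cells taken 10 days after they were transfected with Pdx1 and Ngn3, pancreatic transcription factors of which the latter has the gene symbol Neurog3. The control received no transfection and has no day given. The procedure, the introduced genes and any difference in culture time or conditions therefore cannot be told apart. The sources used here do not give the number of animals, the vector, or the oxygen and glucose of the medium.

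Cells short of oxygen stabilise hypoxia-inducible factors, transcription factors that bind hypoxia response elements in DNA. Well-known targets include the angiogenic ligand Vegfa, the surface carbonic anhydrase Car9, glucose and lactate carriers, many glycolytic enzymes and mitophagy receptors. Glucose enters most stromal cells through facilitative carriers, is trapped by hexokinase, is committed to glycolysis by phosphofructokinase, and can leave as lactate through monocarboxylate carriers.

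Reads were divided by the library totals implied by the counts, gene lengths and RPKM (reads per kilobase of gene length, relative to library size), 7800831 untransfected and 7415094 transfected reads. All intervals are exact 95% intervals and cover counting error only, since there was 1 library per condition and the protocols name no molecular identifiers that would mark PCR copies. Replicate error is therefore unknown, and differences are described without p-values. A gene was called higher or lower when the libraries differed at least 2-fold in scaled reads and the interval excluded 1. The table lists only genes that the authors had selected for change: no log2 ratio in the authors' deposited table is smaller in size than 1.00. Every deposited false discovery rate in it is also low. The rule used here called every row higher or lower, so a call adds nothing to the authors' selection. Its rows held 21.7% of the untransfected and 20.2% of the transfected reads. Pdx1 had 0 reads in untransfected cells, with an interval that reaches up to 0.337 RPKM, and 565 reads in transfected cells. Neurog3 was not analysed here. The stromal surface gene Thy1 was at 1101 RPKM without and 322 RPKM with transfection, 3.41-fold lower, and Itgb1 at 1057 and 519 RPKM, 2.04-fold lower. Of 18 stem cell markers 12 were listed, 6 higher and 6 lower, beside 63.5% and 36.5% of all rows. Among the higher ones, Ly6e was at 19.7 RPKM without and 269 RPKM with transfection, 13.7-fold higher. Kitlg was at 10.9 and 121.5 RPKM, 11.2-fold higher.

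Among the 7 genes, the ligand, the surface carbonic anhydrase and the carriers of glucose and lactate were lower after transfection. The mitophagy receptor, the hexokinase Hk1 and the phosphofructokinase Pfkm were higher, whereas another hexokinase, Hk2, was 3.20-fold lower. The lower genes were Vegfa at 4.52-fold, Car9 at 4.27-fold, Slc16a3 at 3.60-fold and Slc2a1 at 3.08-fold. The higher genes were Bnip3l at 2.39-fold, Hk1 at 2.23-fold and Pfkm at 2.14-fold. So 4 of 7 genes were called lower and 3 of 7 higher, beside 36.5% of all 2325 rows called lower and 63.5% called higher. In bulk RNA, fewer cells of a type and less RNA per cell cannot be told apart. The 3 increases lie close to the limit for listing, and their calls changed with the scaling. With TMM scaling (trimmed mean of M values, which equalises the bulk of the genes) 0 of 3 reached 2-fold, beside 31.6% of all rows called higher, and with median-of-ratios scaling 0 of 3, beside 22.2%, with Hk1 and Pfkm just below equality. All 4 lower genes were called under both, beside 36.5% of rows in each. That was fixed in advance, since both scalings moved every ratio down and no row called lower could lose its call. Both scalings were computed on genes selected for change, 63.5% of them called higher. A downward shift was therefore built in, and the lost calls of the 3 increases do not decide which scaling is right.

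**Figure D1:**
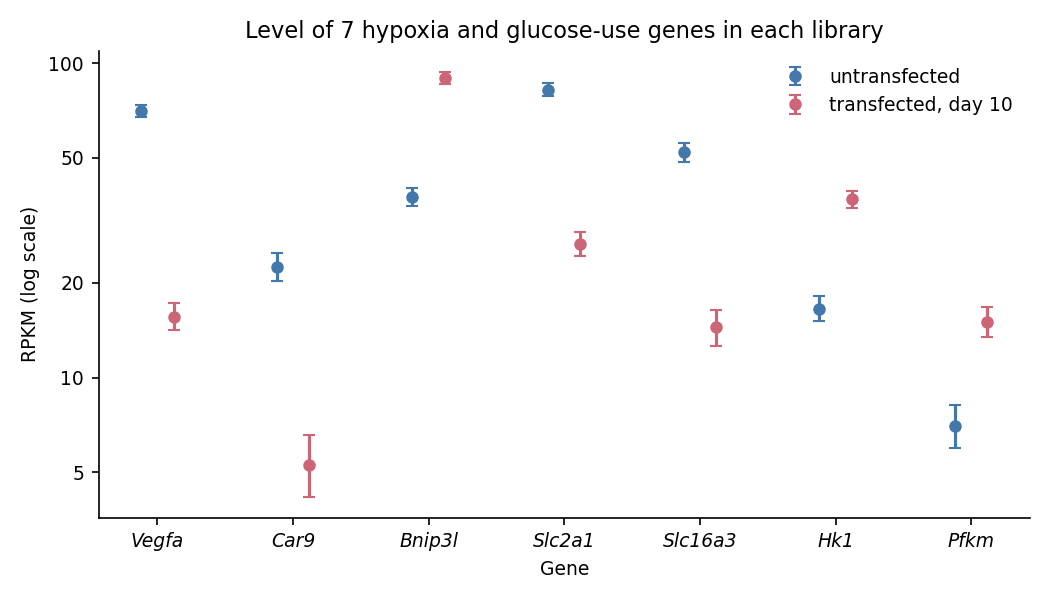
Level of each gene in RPKM (log scale) in the untransfected library (blue) and the library 10 days after transfection (red), with exact 95% Poisson intervals. Vegfa, Car9, Slc2a1 and Slc16a3 sit lower after transfection, and Bnip3l, Hk1 and Pfkm higher. Median-of-ratios scaling, which moved every ratio down by construction, put Hk1 and Pfkm just below equality.

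DNA just upstream of the start sites is shown because hypoxia-inducible factors bind the short element ACGTG or GCGTG, and because the lower and the higher genes can be set side by side for it. The sequences are RefSeq's for the GRCr8 assembly, from windows of 250 bases before to 50 after each start. Entries were found for 6 of the 7 genes, with 8 start sites, and the missing one is Bnip3l. Capitals mark the letters of either element on either strand, each line runs 5′ to 3′, and positions count from 1 at the first transcribed base.
Vegfa, chr9:22452754-22452853, plus strand, -100 to -1: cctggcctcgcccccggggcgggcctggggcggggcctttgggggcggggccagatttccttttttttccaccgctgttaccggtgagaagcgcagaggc
Car9, chr5:62558924-62559033, plus strand, -100 to 10: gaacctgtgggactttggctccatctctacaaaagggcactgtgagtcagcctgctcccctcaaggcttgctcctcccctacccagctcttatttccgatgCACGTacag
Slc2a1, chr5:138002362-138002521, plus strand, -160 to -1: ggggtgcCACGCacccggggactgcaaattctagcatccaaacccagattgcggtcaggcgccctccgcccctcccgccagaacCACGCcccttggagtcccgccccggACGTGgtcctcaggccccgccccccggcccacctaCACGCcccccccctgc
Slc16a3, chr10:106712228-106712327, plus strand, -100 to -1: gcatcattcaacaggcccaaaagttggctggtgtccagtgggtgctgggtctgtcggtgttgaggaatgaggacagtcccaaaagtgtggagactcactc
Pfkm, chr7:131113949-131114008, plus strand, -150 to -91: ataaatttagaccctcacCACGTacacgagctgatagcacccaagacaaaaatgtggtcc
Hk1, chr20:30842263-30842322, minus strand, -250 to -191: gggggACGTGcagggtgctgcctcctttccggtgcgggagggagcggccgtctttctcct

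The element was found on both sides of the comparison. Among the lower genes, Car9 held ACGTG on the opposite strand at positions 2 to 6, and Slc2a1 held 1 ACGTG at -51 to -47 and 3 GCGTG on the opposite strand. Neither the Slc16a3 window nor the 2 Vegfa windows held a match, which says only that these letters are not in those windows. Of the higher genes, Pfkm held ACGTG on the opposite strand at -132 to -128, and 1 of 2 Hk1 windows held it at -245 to -241. ACGTG lies inside the longer element CACGTG, bound by other factors, and no window of these genes held CACGTG. At least 1 match was present in 41.6% of all 33469 windows of this length, and ACGTG alone in 19.3%. By gene, a window with a match was present for 58.9% of the genes called lower and 58.2% of those called higher. A match is a description of the letters and not evidence of binding.

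Vegfa, the ligand that drives growth of blood vessels, had 1962 untransfected and 413 transfected reads. Its level was 70.6 RPKM (67.5 to 73.8) without and 15.6 RPKM (14.2 to 17.2) with transfection. The decrease of 4.52-fold (4.06 to 5.03) was larger than that of 71.6% of the rows called lower. By level Vegfa stood above 91.9% of listed rows in untransfected and above 63.4% in transfected cells.

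Figf, which encodes the related ligand VEGF-D, went the other way. It had 53 and 172 reads, a level of 4.56 RPKM without and 15.6 RPKM with transfection, and was 3.41-fold higher (2.50 to 4.74). Per length, Vegfa exceeded Figf 15.5-fold (11.8 to 20.8) in untransfected cells. In transfected cells the ratio was 1.01, with an interval of 0.840 to 1.21 that includes equal levels. The summed level of both ligands was 75.2 RPKM without and 31.2 RPKM with transfection. This pair and the other family pairs below were set side by side after their values were seen.

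Among 22 vascular growth factors, receptors and angiopoietins on the list, 6 were in the table, 4 higher and 2 lower, a share near the 63.5% of all rows called higher, with a median log2 ratio of 1.66 beside 1.24 over all rows. With TMM or median-of-ratios scaling 1 of the 6 was called higher, beside 31.6% and 22.2% of all rows. Angptl4, a secreted inhibitor of lipoprotein lipase, was 5.46-fold higher (4.62 to 6.49) at 61.8 RPKM after transfection. Angpt1, the ligand that stabilises vessels through the receptor Tek, had 61 and 187 reads and was 3.23-fold higher (2.40 to 4.38). The growth factor chain Pdgfd had 20 and 59 reads and was 3.10-fold higher (1.84 to 5.44). Pdgfa, another chain of that family, was 4.65-fold lower (3.52 to 6.21), from 26.8 to 5.77 RPKM. Fgf2, basic fibroblast growth factor, had 47 and 12 reads and was 3.72-fold lower (1.94 to 7.71).

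Car9 encodes a carbonic anhydrase anchored at the cell surface, which hydrates carbon dioxide outside the cell and is a widely used marker of hypoxia. It had 364 untransfected and 81 transfected reads, or 22.5 RPKM (20.3 to 24.9) and 5.27 RPKM (4.18 to 6.55). The decrease of 4.27-fold had an interval of 3.35 to 5.50, the widest among the 4 lower genes.

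Other carbonic anhydrases and carriers of acid or bicarbonate were higher where listed. Of 36 symbols on that list 4 were in the table, all 4 higher, beside 63.5% of all rows, with a median log2 ratio of 2.68 beside 1.24 over all rows. With TMM scaling 3 of the 4 were called higher, beside 31.6% of all rows, and with median-of-ratios scaling 2, beside 22.2%. Car11, a family member without enzymatic activity, had 112 and 224 reads and was 2.10-fold higher (1.67 to 2.66), which became a log2 ratio of -0.13 once scaled by the median of ratios. Per length, Car9 stood 2.11-fold above Car11 in untransfected cells (1.70 to 2.63), and Car11 stood 4.26-fold above Car9 in transfected cells (3.29 to 5.56). Slc4a4, a sodium bicarbonate cotransporter, was 9.07-fold higher (6.16 to 13.8), from 29 to 250 reads. Car4, an enzyme tethered to the outer membrane, had 16 and 69 reads and was 4.54-fold higher (2.61 to 8.38). The cytosolic Car7 had 3 and 45 reads, a ratio of 15.8 with an interval of 5.07 to 79.4. Car4 and Car7 stayed at 5.26 and 3.96 RPKM or below.

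Slc2a1, the facilitative glucose carrier GLUT1, had 1651 untransfected and 509 transfected reads. It was the most abundant of the 7 genes per length in untransfected cells, at 82.3 RPKM (78.4 to 86.4), and stood at 26.7 RPKM (24.4 to 29.1) after transfection. The decrease was 3.08-fold (2.79 to 3.41). Slc2a3, the high-affinity carrier GLUT3 of neurons, was also lower, with 280 and 124 reads and 2.15-fold (1.73 to 2.67). Slc2a12, another family carrier, was 2.64-fold higher (1.82 to 3.89), but at 1.28 and 3.37 RPKM it stayed below both. These were the hexose carriers in the table, 2 beside Slc2a1 out of 16 other symbols. Of the 2, 1 was lower and 1 higher, beside 36.5% and 63.5% of all rows. Summed over Slc2a1, Slc2a3 and Slc2a12, the level was 105.1 RPKM without and 40.1 RPKM with transfection, and Slc2a1 held the first place among the 3 in both libraries.

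Slc16a3, the carrier MCT4 that exports lactate from glycolytic cells, had 860 reads without and 227 with transfection. Its level was 52.1 RPKM (48.6 to 55.6) without and 14.5 RPKM (12.6 to 16.5) with transfection. The decrease was 3.60-fold (3.11 to 4.19). Of 19 further monocarboxylate and pyruvate transport symbols, 2 were listed, 1 higher and 1 lower. Slc16a4, another member of the family, was 2.90-fold lower (2.03 to 4.21), with 128 and 42 reads. Per length, Slc16a3 stood above Slc16a4 in both libraries, 6.28-fold (5.21 to 7.63) in untransfected and 5.06-fold (3.62 to 7.20) in transfected cells. Both Slc2a1 and Slc16a3 belong to the 32 rows with a solute carrier symbol, of which 21 (65.6%) were called higher and 11 (34.4%) lower, near the 63.5% and 36.5% over all rows.

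Hk1 encodes the hexokinase that binds the outer mitochondrial membrane and is the main form in brain. It had 472 untransfected and 1000 transfected reads, or 16.6 RPKM (15.1 to 18.1) and 36.9 RPKM (34.7 to 39.3). The increase was 2.23-fold with an interval of 1.996 to 2.49. Its direction turned under median-of-ratios scaling, at a log2 ratio of -0.045.

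Hk2, the insulin-responsive hexokinase of muscle and fat and a known hypoxia target, was lower. It had 350 and 104 reads, a level of 12.3 RPKM without and 3.86 RPKM with transfection, and was 3.20-fold lower (2.56 to 4.02). In untransfected cells the 2 hexokinases were close, with Hk1 1.34-fold above Hk2 per length (1.17 to 1.55). In transfected cells Hk1 stood 9.57-fold above Hk2 (7.81 to 11.8), and this comparison within a library does not depend on the scaling between libraries. The summed level of both was 28.9 RPKM without and 40.8 RPKM with transfection, a log2 ratio of 0.50. With TMM scaling that log2 ratio was -0.28, and with median-of-ratios scaling -0.71. Hk2 was the one listed gene among 32 other symbols of glycolysis, so the enzymes between phosphofructokinase and lactate dehydrogenase were not analysed here.

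Pfkm, the muscle form of phosphofructokinase, had 159 untransfected and 324 transfected reads. At 7.01 RPKM (5.96 to 8.18) it was the least abundant of the 7 genes without transfection, and it stood at 15.0 RPKM (13.4 to 16.7) in transfected cells. The increase of 2.14-fold had an interval of 1.77 to 2.61, whose lower end is under the 2-fold limit. Under median-of-ratios scaling its log2 ratio was -0.10.

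Bnip3l, also called Nix, is a receptor on the outer mitochondrial membrane that marks mitochondria for removal and is induced by hypoxia in many cells. It had 945 reads without and 2146 with transfection. The level was 37.6 RPKM (35.3 to 40.1) without and 89.9 RPKM (86.1 to 93.8) with transfection, which made it the most abundant of the 7 genes after transfection. The increase was 2.39-fold (2.21 to 2.58). From 30 other mitophagy and cell death symbols 4 were listed, 1 higher and 3 lower, beside 63.5% and 36.5% of all rows. These 4 were all proteins with a BH3 domain, which promote cell death. Bcl2l11, the protein Bim, was 3.92-fold higher (2.42 to 6.60), from 22 to 82 reads. Pmaip1, the protein Noxa, was 3.76-fold lower (2.72 to 5.30), Bmf 2.88-fold lower (1.94 to 4.38) and Bid 2.09-fold lower (1.69 to 2.60). Bnip3, the close relative of Bnip3l, was not analysed here.

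**Figure D2:**
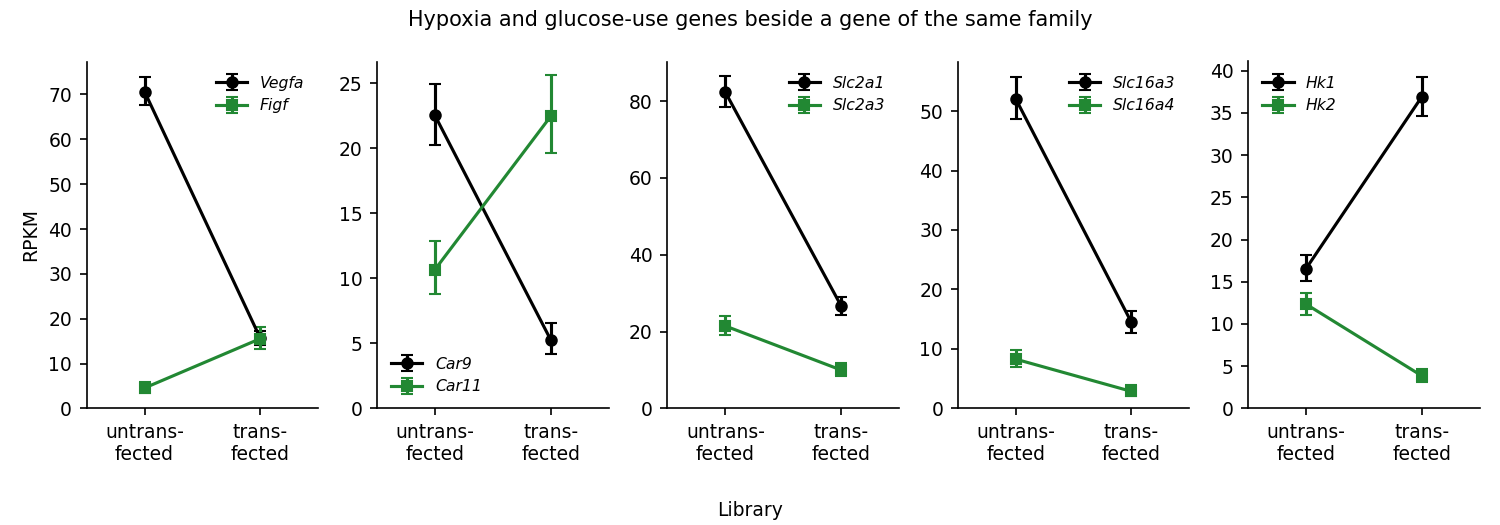
Levels in RPKM (linear scale from 0) of 5 of the genes (black circles) and of a relative from the same family (green squares) in both libraries, with exact 95% Poisson intervals. Vegfa and Figf meet at 15.6 RPKM, Car11 passes Car9, Slc2a1 and Slc2a3 are both lower, Slc16a3 and Slc16a4 are both lower, and Hk1 and Hk2 part.

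The order of the 7 genes by level differed between the libraries. In untransfected cells it ran from Slc2a1 through Vegfa, Slc16a3, Bnip3l, Car9 and Hk1 to Pfkm, and each neighbouring pair differed beyond counting error, the closest being Slc2a1 over Vegfa at 1.17-fold (1.09 to 1.25). In transfected cells the order was Bnip3l, Hk1, Slc2a1, Vegfa, Pfkm, Slc16a3 and Car9. There Vegfa and Pfkm (1.04-fold, 0.898 to 1.21) and Pfkm and Slc16a3 (1.04-fold, 0.874 to 1.24) did not differ beyond counting error. By the size of the decrease no neighbours could be told apart: Vegfa against Car9 gave 1.06 (0.802 to 1.38), Car9 against Slc16a3 gave 1.19 (0.889 to 1.59) and Slc16a3 against Slc2a1 gave 1.17 (0.976 to 1.40). The ends of that order did differ, with Vegfa lower than Slc2a1 by a further 1.46 times (1.26 to 1.70). Among the increases, Bnip3l against Hk1 gave 1.07 (0.935 to 1.23) and Hk1 against Pfkm 1.04 (0.829 to 1.30). The 7 genes together held 6413 untransfected and 4700 transfected reads.

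**Figure D3:**
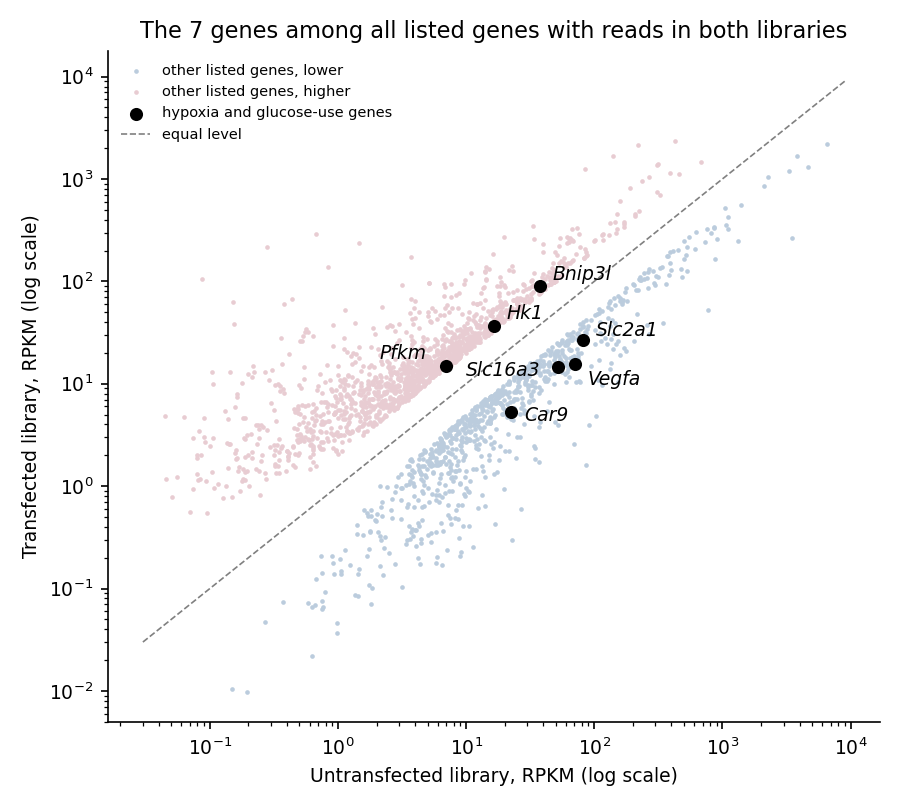
Level of every listed gene with reads in both libraries, untransfected on the horizontal and transfected on the vertical axis (RPKM, log scales), with genes called lower in blue, genes called higher in pink and the 7 hypoxia and glucose-use genes in black. The empty band along the dashed line of equal level is where genes below 2-fold change would lie, and Bnip3l, Hk1 and Pfkm sit at its upper edge.

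For each of the 7 genes the most similar listed genes were found by distance in log2 RPKM over the 2 libraries, among 1454 rows of named rat genes with reads in both. Vegfa was nearest to Aif1l (distance 0.061) and Gadd45a (0.084), and Car9 to Pik3r3 (0.14) and Kcnmb1 (0.15). Slc2a1 was nearest to Ptpla (0.040) and Cyp51 (0.065), and Slc16a3 to Chmp4c (0.11) and Camk2g (0.18). Of the higher genes, Bnip3l was nearest to Adfp (0.058) and Mrfap1 (0.083), Hk1 to Znf703 (0.039) and Ppig (0.11), and Pfkm to Wrb (0.020) and Dirc2 (0.023). With 2 libraries such likeness means only a similar level and ratio.

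Other hypoxia targets were more often lower than higher in the table. Of 43 symbols, counting older and current names separately, 9 were listed. Of these, 7 (77.8%) were lower and 2 (22.2%) higher, beside 36.5% and 63.5% of all rows. Their median log2 ratio was -1.46 beside 1.24 over all rows. Hmox1, heme oxygenase, was 2.45-fold lower (2.19 to 2.74), from 1124 to 436 reads. Ppp1r3c, which targets a phosphatase to glycogen, was 2.74-fold lower (2.32 to 3.25), and Stc2, stanniocalcin 2, was 2.59-fold lower (1.79 to 3.82). The exceptions were Angptl4, above, and Lox, lysyl oxidase, which crosslinks collagen and was 3.84-fold higher (3.67 to 4.02), from 2365 to 8634 reads. None of 16 symbols of the hypoxia-inducible factors and their regulators was in the table, and they were not analysed here. With the 7 genes, the label of a hypoxia group thus covers genes that went both ways.

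Listed genes of the neighbouring routes of glucose were few. Pdk2, a kinase that restrains entry of pyruvate into the citric acid cycle, was 2.77-fold higher (2.47 to 3.11), at 23.8 RPKM without and 65.9 RPKM with transfection, as the 1 listed gene of 38. H6pd, which starts a pentose phosphate route in the endoplasmic reticulum, was 2.05-fold lower (1.76 to 2.38), as the 1 listed gene of 13. All 3 listed glycogen and gluconeogenesis genes of 33 were lower, beside 36.5% of all rows. They were Ppp1r3c, the glycogen-binding Stbd1 (3.16-fold, 2.28 to 4.45) and Pgm5 (44.7-fold, 22.4 to 104.2), a relative of phosphoglucomutase found at cell junctions, with 376 and 8 reads. Of 40 respiratory chain symbols 2 were listed. Ucp2, a carrier of the inner mitochondrial membrane, was 2.30-fold lower (2.10 to 2.52), and Cox4i2, a subunit form of cytochrome oxidase known to be induced by low oxygen, was 3.40-fold higher (2.17 to 5.50), from 26 to 84 reads. Over all 12 pathway lists, 33 genes other than the 7 were in the table, 19 (57.6%) lower and 14 (42.4%) higher, beside 36.5% and 63.5% of all rows. With TMM scaling 7 of the 33 were called higher, beside 31.6% of all rows, and with median-of-ratios scaling 3, beside 22.2%.

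**Figure D4:**
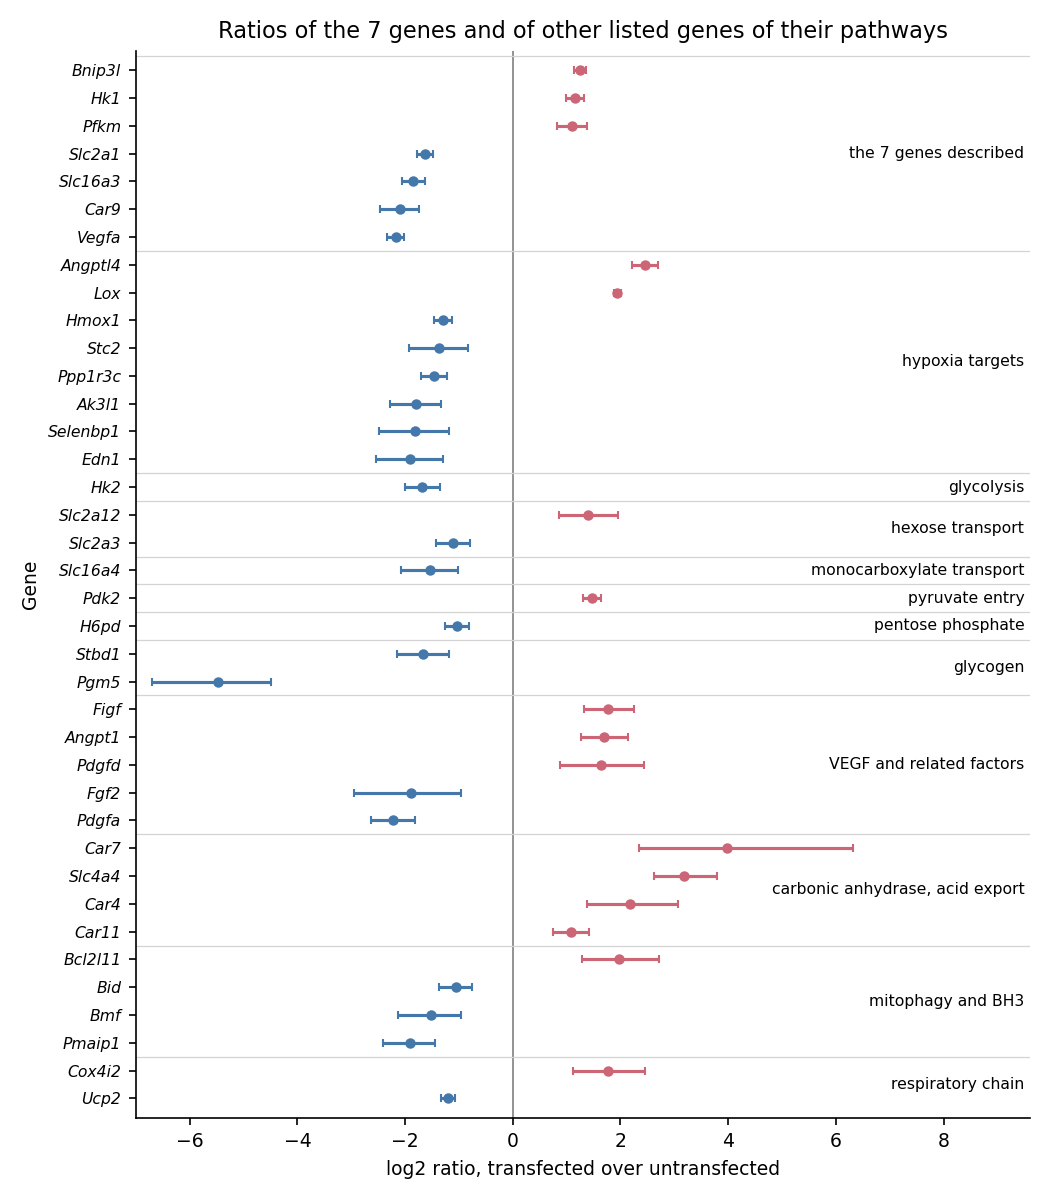
Log2 ratio of transfected over untransfected reads for the 7 genes and 31 of the 33 other listed genes of their pathway lists, with exact 95% intervals from counts (lower in blue, higher in red, a gene on 2 lists shown once). Hypoxia targets lie mostly left of 0, and all 4 genes of the carbonic anhydrase and acid or bicarbonate list lie right of it. Under median-of-ratios scaling Car11 fell left of 0.

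Markers of other cells also differed between the libraries, in a table with 63.5% of all rows called higher and 36.5% called lower. Slc2a1 and Bnip3l are active in red cell precursors. Of 19 erythroid symbols 1 was listed and called lower. Endothelial cells respond to Vegfa, and of 17 endothelial symbols Egfl7 was listed, with 78 and 22 reads. Of blood and macrophage markers, 3 listed of 26, 1 was higher (Cd68, with 5 and 26 reads) and 2 were lower (Cd74 and RT1-Db1). They summed to 12.4 RPKM without and 3.45 RPKM with transfection. Beside Pfkm, 3 of 31 skeletal muscle symbols were listed, 1 higher (Mybpc1, from 0 to 466 reads) and 2 lower (Acta1 and Casq2). Beside Hk1, neuronal markers, 5 listed of 16, were all higher, beside 63.5% of all rows. They summed to 16.4 RPKM without and 83.9 RPKM with transfection. Beta cell markers, 4 listed of 28, were all higher, beside 63.5% of all rows, but they include the introduced gene Pdx1. They summed to 389 and 1214 RPKM, mostly Cpe. The part of such cells in the differences above was not tested.

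When each library was assumed to vary biologically with a coefficient of variation of 0.4, 4 of 4 decreases kept an interval that excluded 1, beside 17.5% of all rows called lower, and 0 of 3 increases did, beside 34.1% called higher. At a limit of 3-fold the same counts resulted, beside 19.1% of rows called lower and 36.8% called higher. For genes with many reads the assumed variation acts as a limit near 3-fold, so both checks restate the sizes of the changes. Slc2a1, at 3.08-fold, passed both only narrowly. The variation between replicates was not measured.

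**Figure D5:**
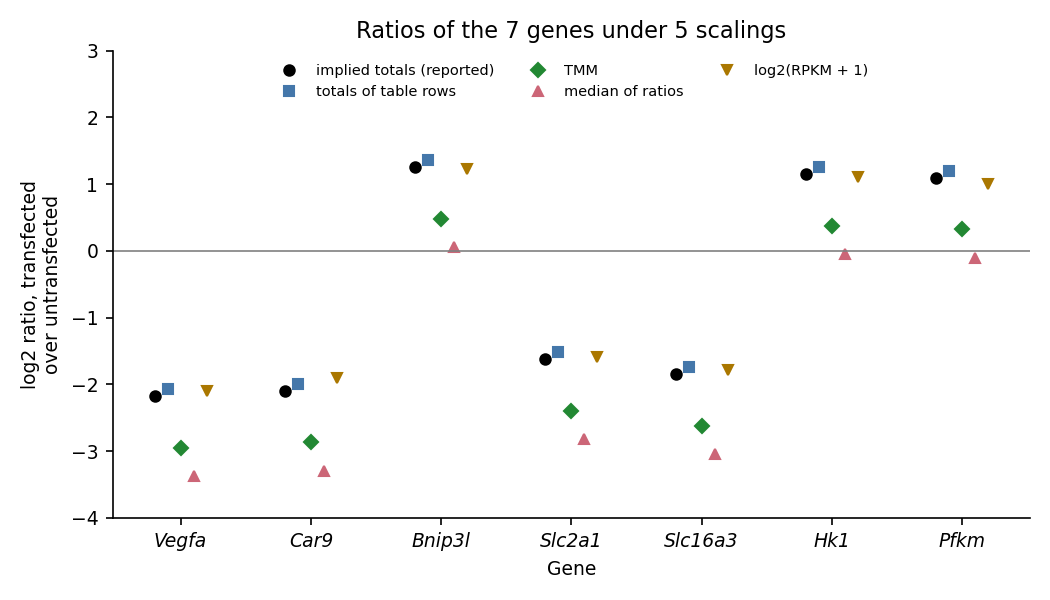
Log2 ratio of the 7 genes with the implied library totals (black) and under 4 alternatives, totals of the table rows, TMM, median of ratios, and log2(RPKM + 1). The 4 lower genes lie between -1.52 and -3.38 in every setting shown, whereas Hk1 and Pfkm lie just below 0 under median-of-ratios scaling.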

How the data were processed

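The 7 genes and the gene lists were chosen with earlier results of these data known. The table of 2325 rows holds whole read counts per cDNA cluster, which the authors deposited unscaled, and RPKM that the authors computed from them, with 0.001 where a library had 0 reads, as the values show. The deposited log2 ratio divides these RPKM values. The deposited p-values and false discovery rates come from a test that the sources used here do not name, compare 1 library with 1 library, and were not used. The submitters' processing notes name genome build rn4. The sources used here do not name the aligner, the counter or the handling of shared reads, and the labels' protocols name no strand-marking step.

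Library totals were taken from count, length and RPKM, which gave the same total in each row of a library except 1 row. Ratios carry Clopper-Pearson intervals of the share of both counts, levels exact Poisson intervals, and ratios of ratios conditional odds-ratio intervals (SciPy 1.17.1). Intervals were tested on simulated data. All 7 lengths match the deposited descriptions. Alternatives were the totals of table rows, TMM (edgeR 4.0.16), median of ratios, log2(RPKM + 1), an assumed coefficient of variation of 0.4, a 3-fold limit, and at least 30 reads over both libraries. Named were the 7 genes, up to 6 listed genes per list by mean RPKM, and the 2 nearest genes. Some genes that the naming rule covers are not reported here. Genes named from annotation were picked with their values known. RefSeq sequences and names are from GRCr8, and no coordinates were converted.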

Additional observations from a re-analysis of the deposited data

How the results depend on the processing

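No paired analysis was possible because there was 1 library per condition, and for the same reason no library could be left out. TMM scaling moved all log2 ratios by -0.78 and median-of-ratios scaling by -1.20, by construction alike for every gene. Under TMM the log2 ratios were -2.95 for Vegfa, -2.87 for Car9, -2.62 for Slc16a3, -2.40 for Slc2a1, 0.48 for Bnip3l, 0.38 for Hk1 and 0.32 for Pfkm. Under median of ratios they were -3.38 for Vegfa, -3.30 for Car9, -3.05 for Slc16a3, -2.83 for Slc2a1 and 0.055 for Bnip3l, and 2 turned, Hk1 at -0.045 and Pfkm at -0.10. The count of higher genes among the 7 was 0 instead of 3 under TMM, median of ratios, the assumed coefficient of variation and the 3-fold limit. The count of lower genes was 4 in each setting. For TMM and median of ratios, that count and the loss of the 3 higher calls follow from their downward shift. Of the other pathway genes, 7 instead of 14 were higher under TMM and 3 under median of ratios, beside 31.6% and 22.2% of all rows. Of the 19 lower, 9 were called with the assumed coefficient of variation and 10 at 3-fold, beside 17.5% and 19.1% of all rows. The totals of table rows and log2(RPKM + 1) left the 7 ratios inside their intervals, and the limit of 30 reads left the counts of other pathway genes at 19 and 14. Depth limits genes with few reads in a library, such as Car7 (3 untransfected reads).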

Other observations

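The deposited table annotates each row with biological processes. Rows grouped by these words, a choice made after their values were seen, add genes to the lists above and also repeat some of theirs. Of 22 rat genes annotated with a process that names glucose, 3 are Slc2a1, Hk1 and Pfkm. The other 19 include Hk2, Slc2a3 and H6pd, already counted above and all lower. Of these 19, 14 were lower and 5 higher, with a median log2 ratio of -1.15, beside 36.5% of all rows called lower and 63.5% called higher. Gpd2, the mitochondrial glycerol phosphate dehydrogenase that passes electrons from glycolysis to the respiratory chain, was 3.10-fold lower (interval 2.61 to 3.69), from 567 to 174 reads. Adipor2, an adiponectin receptor, was 2.12-fold lower (1.89 to 2.40). On the higher side, C1qtnf2, a secreted relative of adiponectin, went from 15.0 to 131.8 RPKM, 8.80-fold higher (7.39 to 10.5). Of 14 genes annotated with a process that names hexose, none of them among the 7, 9 (64.3%) were higher and 5 (35.7%) lower, near the shares of all rows. The 9 higher ones include the introduced gene Pdx1.

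Only Vegfa of the 7 carries the annotation of a response to hypoxia in the deposited table. Of the other 4 rows with it, Stc2 from above among them, 3 were lower and 1 higher, beside 36.5% and 63.5% of all rows. Aqp1, a water channel that also passes carbon dioxide, was 4.14-fold lower (3.96 to 4.33), from 10792 to 2478 reads. Angpt4, an angiopoietin, was 3.03-fold higher (2.03 to 4.62), with 34 and 98 reads. Another row, deposited as LOC502894, has the identifier of Tigar, a phosphatase that lowers glycolytic flux, in RefSeq. It had 148 and 67 reads and was 2.10-fold lower (1.56 to 2.85).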
